A study of Mus musculus with 12 samples.

Results

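p53 target genes are genes that the transcription factor p53 switches on when DNA is damaged or when an oncogene drives division. Here 10 of them (Cdkn1a, Mdm2, Ccng1, Phlda3, Bax, Bbc3, Trp53inp1, Eda2r, Sesn1 and Gadd45a) were followed through bulk RNA-seq of mouse liver. They were chosen by name, with earlier results of these data known, and found by matching the Entrez identifiers of the count table to gene symbols. All 10 were among the 27179 genes of the table. All 10 also passed the filter on low counts, which left 13947 genes for testing. The table held 12 libraries, 1 per mouse, in 4 groups of 3, formed by diet (CD, the chow diet, or LPD, a diet low in protein) and by injection (Vec, the empty vector that the titles call WT, or c-MET/β-catenin). Male mice, 8 weeks old as the study describes this experiment, were put on either diet for 1 week and then kept on it after injection. The c-MET/β-catenin mice, whose livers are called oncogene livers here, received human c-MET and an N-terminally deleted, constitutively active β-catenin by hydrodynamic injection into the tail vein together with Sleeping Beauty transposase, a delivery that reaches only some hepatocytes, and all 4 groups were harvested when the CD-fed oncogene mice came to their end point. The mice are described both as C57/Bl3 and as a mixed background of C57BL/6 with another strain. No sample is described as dissected tumour, so each library reads tumour, other hepatocytes and other liver cells together. The comparisons ask what the oncogenes did to these genes on each diet, and what the diet did to them with and without the oncogenes.

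In an unstressed cell the ubiquitin ligase MDM2 keeps p53 scarce, and the level of p53 is set mainly by degradation of the protein and not by its mRNA. Stress signals free p53 from MDM2, and p53 then binds a 20-base site, made of 2 copies of a 10-base unit, near the genes it activates. Its targets stop the cell cycle, with p21 (Cdkn1a) as the main brake on the cyclin-dependent kinases, or they favour cell death, or they limit oxidative damage and growth signalling, and Mdm2 itself is a target that closes the loop. In the liver p53 is best known as a barrier to tumours after DNA damage and as a regulator of hepatocyte ploidy.

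The site p53 reads was looked for in the promoters, since it is the feature of sequence by which these genes are grouped. RefSeq promoter windows (GRCm38.p6, 250 bases before to 50 bases after the start) were at hand for 9 of the 10 genes, in 13 windows. Trp53inp1 had none. Both strands were searched for the p53 consensus, with 0 or 1 base between the 10-base units and with the central C and G of each unit kept. A site with at most 1 mismatch lay in 2 of the 13 windows, against 0.11% of all 32851 promoter windows, and one with at most 3 mismatches lay in 5, against 2.82%. The 5 sites are shown with up to 40 bases to either side, 5′ to 3′ on the gene's strand, with capitals for the bases of the site that match the consensus. They show how the match weakens from Cdkn1a and Ccng1 to Sesn1.
Cdkn1a: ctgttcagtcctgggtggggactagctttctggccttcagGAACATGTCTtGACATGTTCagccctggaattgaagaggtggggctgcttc
Ccng1: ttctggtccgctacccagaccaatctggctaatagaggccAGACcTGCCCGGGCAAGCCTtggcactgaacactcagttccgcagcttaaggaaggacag
Bax: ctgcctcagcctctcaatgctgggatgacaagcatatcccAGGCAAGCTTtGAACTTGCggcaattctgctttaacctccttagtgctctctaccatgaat
Bbc3: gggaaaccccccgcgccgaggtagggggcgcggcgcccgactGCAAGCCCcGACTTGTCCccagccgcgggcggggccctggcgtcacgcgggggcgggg
Sesn1: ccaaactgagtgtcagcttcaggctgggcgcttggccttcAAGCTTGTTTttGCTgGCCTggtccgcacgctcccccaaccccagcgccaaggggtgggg
The Cdkn1a stretch is chr17:29090888-29090978 on the plus strand, and its site, with 1 mismatch, spans bases -51 to -32 from the start. The Ccng1 stretch is chr11:40755422-40755521 on the minus strand, also with 1 mismatch, at bases -195 to -176. In Bax (chr7:45467039-45467139, minus strand) the site had 2 mismatches and 1 base between the units. Bbc3 (chr7:16309446-16309545, plus strand) and Sesn1 (chr10:41887226-41887325, plus strand) each had 3 mismatches. Cdkn1a, Bbc3 and Sesn1 also had windows at other starts. The best match there had 7 mismatches in Cdkn1a, 6 and 8 in Bbc3, and 8 in Sesn1. In the windows of Mdm2, Phlda3, Eda2r and Gadd45a no site came within 3 mismatches, which says only that these letters are not in these 300 bases. Sites outside the windows were not searched. Of the genes with a site, Cdkn1a and Bax rose on CD whereas Ccng1, Bbc3 and Sesn1 did not pass the test, and Mdm2, Phlda3 and Eda2r rose with no such site in their windows.

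Library totals ran from 19476209 to 31990267 counts. Levels are given as CPM, read counts scaled to library size and by TMM factors, which ranged from 0.864 to 1.12, and fold changes come from edgeR's quasi-likelihood test over all 13947 genes, with a call at a Benjamini-Hochberg adjusted p under 0.05. In a principal component analysis the first component (54.0% of the variance) ran from the Vec livers to the CD oncogene livers, and CD Vec replicate 2 stood apart on the second (9.8%), at 60.0 against at most 18.9 for any other library. The columns of the table also carry dataset numbers that fall into 3 runs. CD oncogene replicates 1 and 2 form 1 run, CD Vec replicates 1 and 2 with LPD Vec replicate 1 another, and the other 7 libraries the rest. The labels do not explain the numbers.

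On CD the oncogene livers held more mRNA of 6 of the 10 p53 targets than Vec livers: Cdkn1a, Phlda3, Eda2r, Trp53inp1, Bax and Mdm2. The rise ran from 1.5-fold for Mdm2 to 28.1-fold for Cdkn1a. Ccng1, Bbc3, Sesn1 and Gadd45a did not pass the test, and none of the 10 was called lower. Across all genes 35.4% were called and 18.7% were called higher in this comparison, which is the background against which 6 of 10 is to be read. With the runs of dataset numbers, which part these groups, as a term in the fit, 1 of the 10 was called (Phlda3). The share of all genes called with that term is not given here. The run that holds all 4 groups has 1 library in each CD group. There the log2 fold changes were 2.35 for Cdkn1a, 2.29 for Phlda3, 1.32 for Eda2r, 0.90 for Trp53inp1, 0.87 for Bax and 0.33 for Mdm2. The 6 genes called over all libraries were also those with every oncogene liver above every Vec liver, as were 22.2% of all genes. The median log2 fold change of the 10 was 0.74, against -0.01 over all genes tested. On LPD 1 of the 10 was called, Phlda3, where 1.32% of all genes were called and 1.15% were called higher. The median of the 10 there was 0.38, against 0.01 over all genes. On LPD every oncogene liver lay above every Vec liver for 6 of the 10, against 13.5% of all genes, and below for 2, against 11.6%.

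**Figure D1:**
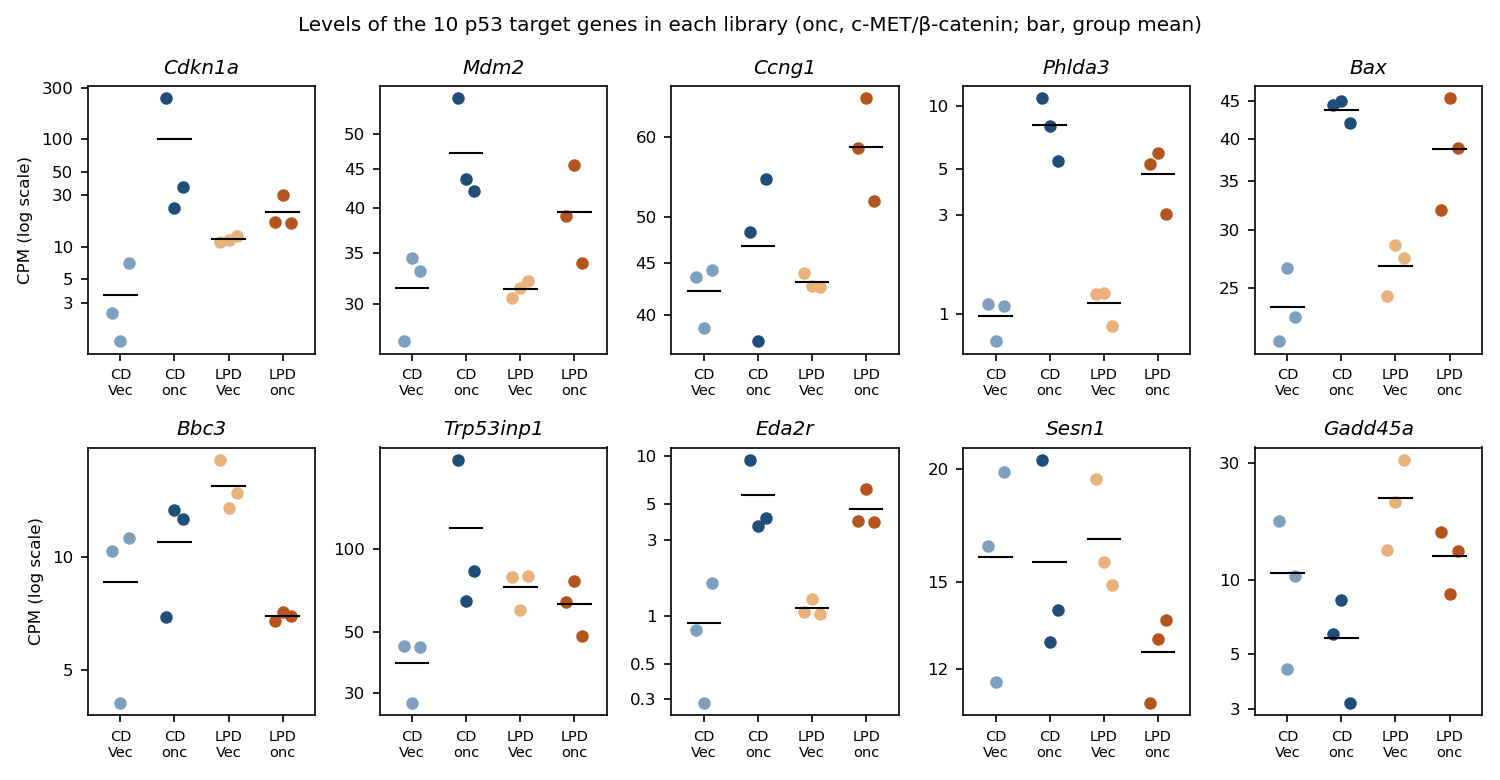
Level of each of the 10 p53 target genes in CPM, on a log scale that differs between panels, for the 3 libraries of each group (points) with the group mean (bar). In Cdkn1a, Mdm2, Phlda3, Bax, Trp53inp1 and Eda2r every CD oncogene library lies above every CD Vec library, and CD oncogene replicate 1 is the highest point for Cdkn1a at 242 CPM.

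Cdkn1a encodes p21, the inhibitor of cyclin-dependent kinases through which p53 stops the cell cycle (Entrez 12575, chr17:29090979-29100722, build GRCm38.p6 as for the gene positions that follow). Its level was 2.39, 1.31 and 6.98 CPM in the CD Vec livers and 242, 22.8 and 36.0 CPM in the CD oncogene livers. On LPD it was 11.1, 11.4 and 12.6 CPM in Vec livers and 17.0, 30.1 and 16.7 CPM in oncogene livers. The groups did not overlap on either diet, and the LPD Vec livers also lay above all 3 CD Vec livers. Its rise on CD was the largest of the 10, a log2 fold change of 4.81 with an SE of 0.91 (adjusted p = 0.00214), and ± stands for the SE in the values that follow. Replicate 1 of the CD oncogene group, with its 242 CPM, carried much of that size: without it the log2 fold change was 3.04, still called, and without CD Vec replicate 3 it was 5.75. It was 2.90 and no longer called with the run term (adjusted p = 0.142). On LPD the log2 fold change was 0.86 ± 0.78 (adjusted p = 0.807), and Cdkn1a was not called.

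Mdm2 encodes the ubiquitin ligase that marks p53 for degradation (Entrez 17246, chr10:117688875-117710758). It was at 26.8, 34.5 and 33.1 CPM in CD Vec livers and at 55.8, 43.7 and 42.2 CPM in CD oncogene livers, with no overlap. The rise was small beside that of Cdkn1a but had a narrow error, with a log2 fold change of 0.59 ± 0.15 (adjusted p = 0.0093). It missed the threshold when only the 2 CD groups entered the fit (0.57, adjusted p = 0.0555). On LPD Mdm2 was at 30.6, 31.5 and 32.1 CPM in Vec livers and at 39.1, 45.6 and 34.0 CPM in oncogene livers, again without overlap. The log2 fold change there was 0.33 ± 0.15 (adjusted p = 0.43).

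Ccng1 encodes cyclin G1, a p53 target that recruits a phosphatase to MDM2 and so feeds back on p53 (Entrez 12450, chr11:40748552-40755309). The CD groups overlapped, at 43.6, 38.8 and 44.3 CPM in Vec and 48.3, 37.7 and 54.4 CPM in oncogene livers (log2 fold change 0.15 ± 0.14, adjusted p = 0.433). Scaling by total counts alone, which moved the median of all genes on CD to 0.278, brought Ccng1 to 0.43 (adjusted p = 0.0329). Its highest levels were on LPD. There Vec livers were at 44.0, 42.7 and 42.6 CPM and oncogene livers at 58.4, 65.5 and 51.9 CPM, without overlap (0.44 ± 0.14, adjusted p = 0.187).

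Gadd45a is a DNA damage gene whose product binds PCNA and the mitotic kinase CDK1 (Entrez 13197, chr6:67035096-67037407). It was the member with the lowest log2 fold change on CD, at 17.4, 4.38 and 10.4 CPM in Vec and 6.07, 8.28 and 3.18 CPM in oncogene livers. The groups overlapped (-0.88 ± 0.49, adjusted p = 0.183). On LPD it was at 13.3, 20.8 and 30.9 CPM in Vec livers and 15.6, 8.77 and 13.1 CPM in oncogene livers, which overlapped as well (-0.79 ± 0.47, adjusted p = 0.616). Its exons overlap those of the antisense gene E230016M11Rik, which the table also counts, at 0.635 to 1.93 CPM. The strand setting of the counting is not stated, so reads of the 2 genes may not be separable.

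Bax encodes the protein that opens the mitochondrial outer membrane in apoptosis (Entrez 12028, chr7:45461695-45466903). Of the genes that rose it had the smallest SE, with levels of 21.1, 26.6 and 22.9 CPM in CD Vec and 44.5, 45 and 42.1 CPM in CD oncogene livers. On CD it rose by 0.90 ± 0.14 on the log2 scale (adjusted p = 0.000547). On LPD Vec livers were at 24.4, 28.6 and 27.5 CPM and oncogene livers at 32.0, 45.5 and 38.9 CPM. These did not overlap, yet the log2 fold change of 0.53 ± 0.14 did not pass the threshold (adjusted p = 0.101).

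Bbc3 encodes PUMA, the BH3-only protein by which p53 triggers apoptosis (Entrez 170770, chr7:16308398-16318334). On CD it overlapped between Vec (10.3, 4.09 and 11.2 CPM) and oncogene livers (6.93, 13.3 and 12.7 CPM), with a log2 fold change of 0.35 ± 0.33 (adjusted p = 0.437). On LPD Vec livers were at 18.1, 13.5 and 14.8 CPM and oncogene livers at 6.74, 7.16 and 6.95 CPM, and every oncogene liver lay below every Vec liver. The log2 fold change was -1.15 ± 0.33, with an adjusted p of 0.139.

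Eda2r encodes a receptor of the TNF receptor family for ectodysplasin A2 (Entrez 245527, chrX:97333837-97377234). It was scarce in Vec livers, at 0.815, 0.284 and 1.61 CPM on CD and 1.06, 1.27 and 1.03 CPM on LPD. In oncogene livers it was at 9.53, 3.67 and 4.08 CPM on CD and 3.91, 6.21 and 3.85 CPM on LPD, above every Vec liver on both diets. It rose on CD by 2.66 ± 0.52 on the log2 scale (adjusted p = 0.002), with 3.37 without CD Vec replicate 3 and 2.08 without CD oncogene replicate 1. It had 1.73 and was not called with the run term (adjusted p = 0.172). On LPD the log2 fold change of 2.06 ± 0.50 stayed short of the threshold (adjusted p = 0.074). The lowest of these levels, in CD Vec replicate 2, rests on 5 counts.

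Phlda3 encodes a small protein that keeps the kinase AKT from the membrane (Entrez 27280, chr1:135766085-135769134). It was the one member called on both diets. On CD it went from 1.12, 0.739 and 1.09 CPM in Vec livers to 10.9, 8.04 and 5.43 CPM in oncogene livers, a log2 fold change of 3.04 ± 0.35 (adjusted p = 8.99e-05). On LPD it went from 1.25, 1.27 and 0.872 CPM to 5.28, 5.93 and 3.02 CPM, a log2 fold change of 2.06 ± 0.34 (adjusted p = 0.0117). That second call did not hold without LPD Vec replicate 1 (2.13, adjusted p = 0.0617), replicate 2 (2.15, adjusted p = 0.0605) or replicate 3 (1.91, adjusted p = 0.0778), and without LPD oncogene replicate 2 (1.86, adjusted p = 0.0516), with log2 fold changes close to the 2.06 of all libraries.

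Trp53inp1 encodes a stress protein that acts with p53 in cell death and in autophagy (Entrez 60599, chr4:11156441-11174379). On CD it was at 44.3, 27.7 and 44.1 CPM in Vec livers and 211, 64.7 and 83.0 CPM in oncogene livers, without overlap. The rise was 1.63 ± 0.39 on the log2 scale (adjusted p = 0.00747), with 0.93 without CD oncogene replicate 1. On LPD it was at 79.0, 59.9 and 80.0 CPM in Vec and 64.5, 76.8 and 48.2 CPM in oncogene livers, and the groups overlapped (-0.21 ± 0.38, adjusted p = 0.924).

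Sesn1 encodes sestrin 1, an antioxidant protein that restrains the growth kinase mTORC1 (Entrez 140742, chr10:41810574-41908436). On CD it overlapped, at 16.5, 11.6 and 19.9 CPM in Vec and 20.5, 12.9 and 14.0 CPM in oncogene livers (-0.02 ± 0.22, adjusted p = 0.961). On LPD every oncogene liver (11, 12.9 and 13.6 CPM) lay below every Vec liver (19.5, 15.8 and 14.9 CPM). The log2 fold change was -0.42 ± 0.22 (adjusted p = 0.55).

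**Figure D2:**
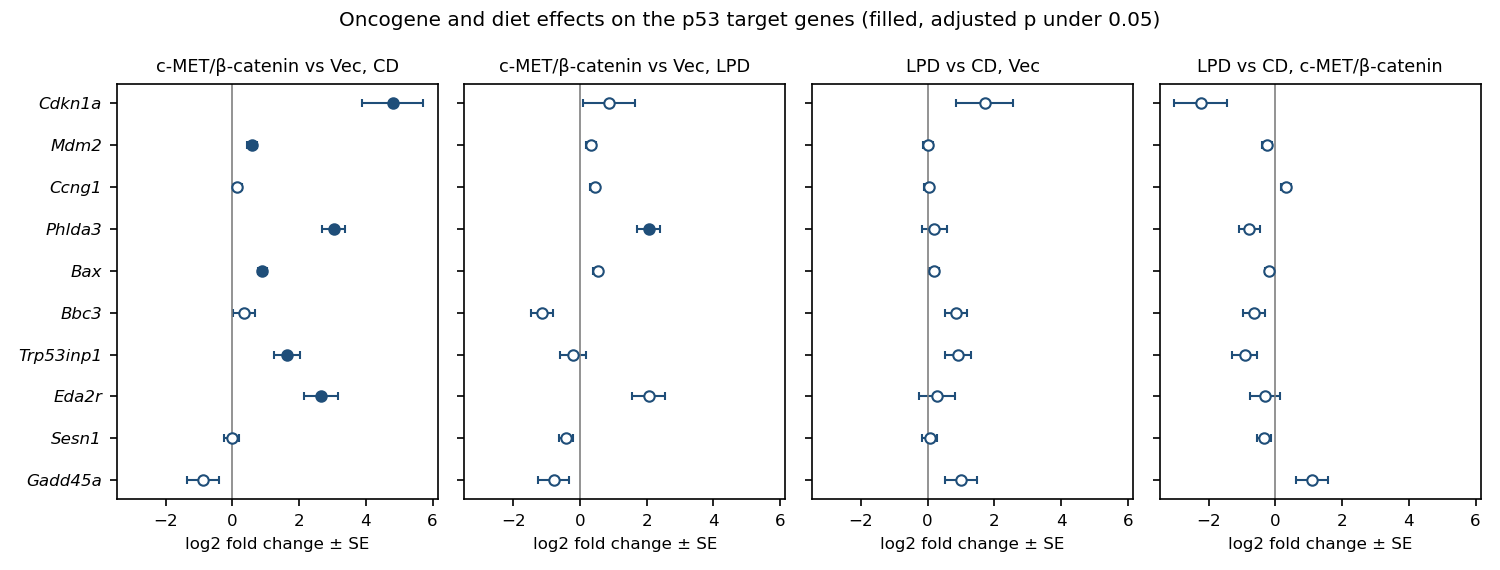
Log2 fold change ± SE of the 10 p53 target genes for the oncogenes on CD and on LPD and for LPD against CD in Vec and in oncogene livers (edgeR, n = 3 a group, filled points called at an adjusted p under 0.05). On CD 6 points are filled, led by Cdkn1a at 4.81, on LPD Phlda3 alone is filled at 2.06, and neither diet panel has a filled point.

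Between the diets none of the 10 was called. In Vec livers 0.308% of all genes were called, and the count for the 10 was 0 by edgeR and 0 by DESeq2. In edgeR 2 of the 10 had an unadjusted p under 0.05 (Bbc3 and Trp53inp1), as did 1377 of the 13947 genes tested. Cdkn1a, Bbc3 and Trp53inp1 were higher in every LPD Vec liver than in every CD Vec liver, with log2 fold changes of 1.71 ± 0.85 (adjusted p = 0.556), 0.85 ± 0.33 (adjusted p = 0.388) and 0.91 ± 0.38 (adjusted p = 0.452). Such groups apart in the upward direction were found for 8.13% of all genes. The other 7 overlapped. Mdm2 (0.00 ± 0.15), Ccng1 (0.03 ± 0.14) and Sesn1 (0.06 ± 0.22) had the values nearest to 0.

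In oncogene livers 20.0% of all genes were called between the diets. Again none of the 10 was called by edgeR, and DESeq2 called 1 (Cdkn1a). In edgeR 5 of the 10 had an unadjusted p under 0.05, as did 4703 of the 13947 genes tested. Cdkn1a was at 17.0 to 30.1 CPM on LPD against 22.8 to 242 CPM on CD, and the ranges overlapped through LPD replicate 2. Its log2 fold change was -2.24 ± 0.79 (adjusted p = 0.0697). Without CD replicate 1 that value shrank to -0.47, and without CD replicate 2 or 3 it was called, at -2.71 (adjusted p = 0.0295) or -2.64 (adjusted p = 0.0489). Trp53inp1 (-0.92 ± 0.38, adjusted p = 0.115) and Phlda3 (-0.78 ± 0.31, adjusted p = 0.0984) also had negative values, and both overlapped between the diets. Trp53inp1 was called without CD replicate 2 (-1.22, adjusted p = 0.0375), but without CD replicate 1 it was at -0.22 (adjusted p = 0.585). Phlda3 was called without CD replicate 3 (-1.0, adjusted p = 0.0422), as was Ccng1 (0.45, adjusted p = 0.0478), whereas Phlda3 was at -0.5 without CD replicate 1 and at -0.53 without LPD replicate 3. Gadd45a was the one gene whose groups did not overlap, higher on LPD in each library (1.10 ± 0.48, adjusted p = 0.136), as were 19.2% of all genes.

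The interaction asks whether the oncogene effect differed between the diets, as the log2 fold change on LPD minus that on CD. Of all genes 8.91% were called, and of the 10 none. In edgeR 3 of the 10 had an unadjusted p under 0.05, as did 3600 of the 13947 genes tested. DESeq2 called 3 of the 10, and its share over all genes is not given here. Both methods picked out the same genes among the 10, Cdkn1a, Trp53inp1 and Bbc3. Cdkn1a had the largest value at -3.95 ± 1.16 (adjusted p = 0.0575). Trp53inp1 followed at -1.83 ± 0.54 (adjusted p = 0.0575) and Bbc3 at -1.50 ± 0.47 (adjusted p = 0.0664). Single libraries moved these values both ways. Cdkn1a was called without CD Vec replicate 3 (adjusted p = 0.0435) and without CD oncogene replicate 2 (adjusted p = 0.033) or 3 (adjusted p = 0.044). Trp53inp1 was called without CD oncogene replicate 2 (adjusted p = 0.0284) or 3 (adjusted p = 0.0437), and Bbc3 without replicate 1 of that group (adjusted p = 0.036). Without that same replicate 1 Cdkn1a shrank to -2.18 (adjusted p = 0.0863) and Trp53inp1 to -1.14 (adjusted p = 0.0583). With the run of the dataset numbers as a term in the fit none was called, at -2.38 for Cdkn1a (adjusted p = 0.42), -1.29 for Trp53inp1 (adjusted p = 0.415) and -1.69 for Bbc3 (adjusted p = 0.23). For Mdm2 (-0.25 ± 0.21), Bax (-0.37 ± 0.20), Eda2r (-0.60 ± 0.71) and Phlda3 (-0.98 ± 0.48) the difference between the diets was not called, so their rise on CD is not shown to differ from their value on LPD.

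The 10 genes did not move as a block from liver to liver. CD oncogene replicate 1 held the highest level of the 12 libraries for 6 of them (Cdkn1a, Mdm2, Phlda3, Trp53inp1, Eda2r and Sesn1), and CD Vec replicate 2 the lowest for 5 (Cdkn1a, Phlda3, Bbc3, Trp53inp1 and Eda2r). Without either library 6 genes were still called on CD. After the group means were taken out, log2 CPM of the 45 gene pairs correlated across the 12 libraries with a median r of 0.28, from -0.56 (Mdm2 with Bbc3) to 0.90 (Cdkn1a with Eda2r, and Cdkn1a with Trp53inp1), and 13 pairs were above 0.5. Without CD oncogene replicate 1 the median over 11 libraries was 0.29, but single pairs moved. Bbc3 went from -0.07 to 0.7 with Cdkn1a and from -0.11 to 0.7 with Trp53inp1, and Mdm2 went from 0.54 to 0.1 with Trp53inp1 and from -0.56 to -0.36 with Bbc3. These values share library, depth and scaling, and are given as a description. Levels compared per kilobase of exon also set the genes apart in CD Vec livers, from 14.9 CPM per kilobase for Bax and 12 for Ccng1 down to 0.632 for Phlda3 and 0.154 for Eda2r.

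**Figure D3:**
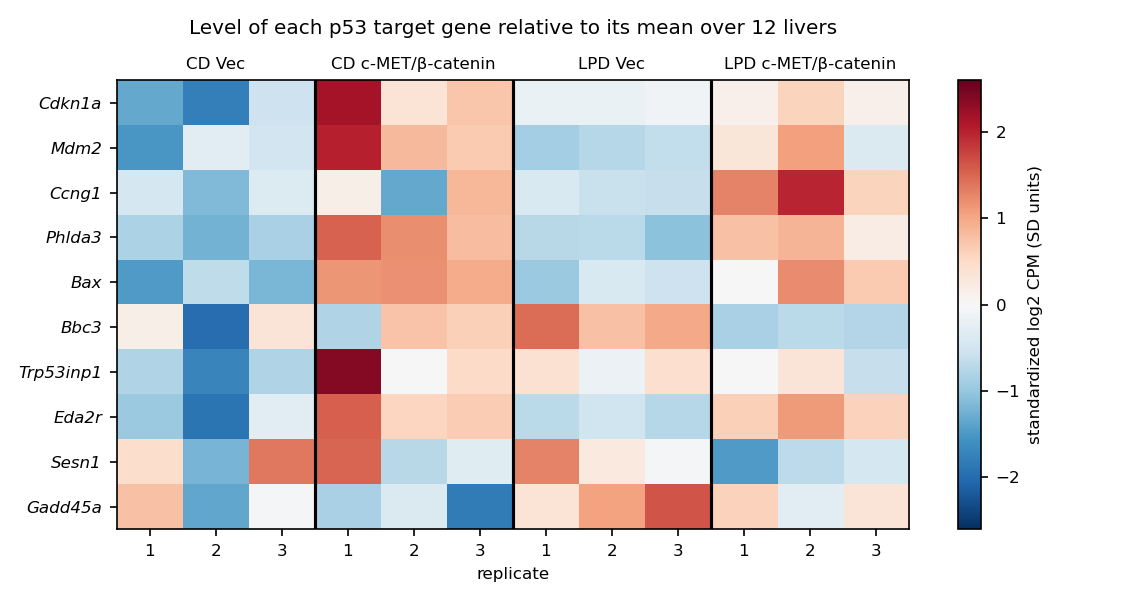
Level of the 10 p53 target genes in the 12 livers as log2 CPM, standardized for each gene over the 12 libraries (SD units, red above and blue below the gene's mean), with replicates on the horizontal axis and groups parted by lines. The column of CD oncogene replicate 1 is the darkest red, with Trp53inp1 at 2.39 and Cdkn1a at 2.17 SD, and that of CD Vec replicate 2 the darkest blue, with Bbc3 at -1.98 SD.

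The dataset numbers of the columns moved with the CD comparison, since both of the first 2 CD oncogene livers carry one run and both of the first 2 CD Vec livers another. With the run as a term in the fit, 1 of the 10 was called on CD (Phlda3, 2.45, adjusted p = 0.0167) in place of 6. Beside the values of Cdkn1a and Eda2r given above, Trp53inp1 then had a log2 fold change of 1.06 (adjusted p = 0.34), Bax 0.79 (adjusted p = 0.0758) and Mdm2 0.37 (adjusted p = 0.426). A fit of only the 7 libraries of the run that holds each group, chosen after seeing the data, has 1 library in each CD group, which is assumed to vary like the LPD libraries. There Cdkn1a (2.35 ± 0.47, adjusted p = 0.032), Phlda3 (2.29 ± 0.56, adjusted p = 0.0369) and Bax (0.87 ± 0.23, adjusted p = 0.0459) were called on CD, where 1745 of 14469 genes were. Eda2r had 1.32 ± 0.48 (adjusted p = 0.111), Trp53inp1 0.90 ± 0.35 (adjusted p = 0.151) and Mdm2 0.33 ± 0.20 (adjusted p = 0.319). All 6 had the direction they had over the 12 libraries. Of the genes uncalled on CD over the 12 libraries, Gadd45a had -2.07 with the run term (adjusted p = 0.162) and -1.72 ± 0.49 within that run. Sesn1 had -0.24 and -0.52 ± 0.21, Ccng1 0.35 and 0.28 ± 0.18, and Bbc3 0.49 and 0.16 ± 0.21. On LPD the call of Phlda3 was kept with the run term. Within the run that holds each group the LPD values were 2.13 ± 0.38 for Phlda3, 2.01 ± 0.33 for Eda2r and -1.03 ± 0.13 for Bbc3. Between the diets in oncogene livers Bbc3 had -0.86 ± 0.16 and Gadd45a 1.97 ± 0.43 in that run, against 1 CD library.

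Trp53, the gene of p53 itself, was not called in any comparison. It was at 18.1, 30.5 and 16.4 CPM in CD Vec and 18.6, 24.7 and 26.9 CPM in CD oncogene livers (log2 fold change 0.11 ± 0.22, adjusted p = 0.72). On LPD it was at 18.2, 20.4 and 22.7 CPM and at 19.1, 19.8 and 21.3 CPM (-0.02 ± 0.22, adjusted p = 0.986), and all 4 groups overlapped. Of the 15 genes listed as p53 and its regulators 13 were tested, and on CD 1 rose and 3 fell, or 4 of 13 where 35.4% of all genes were called. The gene that rose was Cdkn2a, whose alternative reading frame encodes the MDM2 inhibitor p19ARF, at 2.61 ± 0.53 (adjusted p = 0.00272) but from a mean of only 0.108 to 0.680 CPM. Those that fell were the ubiquitin ligase Cop1 (-0.51 ± 0.12, adjusted p = 0.00522), the damage kinase Atr (-0.53 ± 0.18, adjusted p = 0.0369) and Mdm4, a partner of MDM2 in holding p53 inactive (-0.35 ± 0.13, adjusted p = 0.0455). Mdm4 lost its call in 9 of the 12 fits that left out a library, Atr in 6 of them, and Cop1, Atr and Mdm4 were not called with total counts alone. With the run term 0 of the 13 were called on CD, where Cdkn2a had 2.97 (adjusted p = 0.0918) and Cop1 -0.44 (adjusted p = 0.243). The median of the 13 was 0.01. On LPD 0 of the 13 were called by edgeR and 0 by DESeq2, and 0 had an unadjusted p under 0.05.

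A wider list of 32 other p53 targets, of which 30 were tested, moved in both directions on CD, where 12 rose and 6 fell with a median log2 fold change of 0.14, beside 18.7% of all genes called higher and 35.4% called in either direction, a background that also holds for its parts. Of its 3 tested arrest genes 2 rose. Btg2, which slows the G1 phase, rose by 2.97 ± 0.51 (adjusted p = 0.00113), and by 2.01 without CD oncogene replicate 1. Plk2, a kinase of the stress response, rose by 0.79 ± 0.19 (adjusted p = 0.00623), while Plk3 had 0.14 ± 0.40 (adjusted p = 0.816). Of 12 cell death genes 4 rose and 4 fell. Tnfrsf10b, a receptor for the death ligand TRAIL, rose by 3.48 ± 0.69 (adjusted p = 0.00248) to a mean of 5.32 CPM. Pmaip1, the BH3-only protein NOXA, rose by 1.98 ± 0.43 (adjusted p = 0.00411) and Apaf1, the core of the apoptosome, by 1.59 ± 0.38 (adjusted p = 0.00653). Ei24 fell by 0.70 ± 0.13 on the log2 scale (adjusted p = 0.00134), while the uncalled genes with the highest levels were the nuclease Aen (0.00 ± 0.23, adjusted p = 0.996) and the death receptor Fas (-0.16 ± 0.16, adjusted p = 0.486). Without CD oncogene replicate 1 or 2 the count of 8 called cell death genes was 5.

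Of 9 targets in metabolism and redox 5 rose and 2 fell on CD. Gls2, the liver glutaminase, had the largest change of the wider list in the downward direction. It was at 400, 326 and 466 CPM in CD Vec livers and 35.5, 19.4 and 84.0 CPM in CD oncogene livers, with no overlap, a log2 fold change of -3.10 ± 0.46 (adjusted p = 0.000459). Dram1, a lysosomal protein of autophagy, rose by 2.21 ± 0.40 (adjusted p = 0.00135) and the stress cytokine Gdf15 by 2.15 ± 0.47 (adjusted p = 0.00421), or by 1.33 without CD oncogene replicate 1. The mitochondrial reductase Fdxr fell by 0.73 ± 0.16 (adjusted p = 0.00434), and Tigar, a brake on glycolysis, had -0.21 ± 0.19 (adjusted p = 0.414). Of 6 DNA repair targets 1 rose, the translesion polymerase Polk (1.12 ± 0.21, adjusted p = 0.00172). The uncalled repair genes with the highest levels were Xpc (-0.35 ± 0.13, adjusted p = 0.0601) and Pcna (0.13 ± 0.17, adjusted p = 0.575). The count of 1 repair gene was 3 without CD Vec replicate 2 and 2 without CD oncogene replicate 3. With the run term 1 of the 30 was called on CD in place of 18, Gls2 (-2.24, adjusted p = 0.0249). All 18 had their direction there, with 2.79 for Tnfrsf10b, 1.78 for Dram1, 1.71 for Pmaip1, 0.9 for Polk and -0.6 for Fdxr, but 1.05 for Gdf15 and 0.43 for Plk2.

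On LPD 1 of the 30 rose, Dram1 (2.08 ± 0.41, adjusted p = 0.0318), where 1.15% of all genes were called higher. The call of Dram1 was lost on leaving out any of the 6 LPD libraries. The oncogene effect differed between the diets for 5 of the 30, where 8.91% of all genes were called, a count that was 0 with the run term, 2 with no filter or with the replicate block, and 0 to 7 when single libraries were left out. It was 0 without LPD Vec replicate 2, 7 without CD oncogene replicate 3, and 1 to 3 without any one of the others. Gls2 had an interaction of 2.97 ± 0.61 (adjusted p = 0.0168), at 176, 104 and 154 CPM in LPD oncogene livers, so that it lay above all 3 CD oncogene livers, and at 186, 117 and 174 CPM in LPD Vec livers, below all 3 CD Vec livers. Btg2 had -2.89 ± 0.70 (adjusted p = 0.03), with 128, 37.3 and 29.7 CPM in CD oncogene and 6.06, 8.0 and 5.95 CPM in LPD oncogene livers. The interaction of Gls2 missed the threshold without LPD Vec replicate 2 (adjusted p = 0.0529) and that of Btg2 in 7 of the 12 fits that left out a library, with no filter and with the replicate block. Over those 12 fits the values ran from 2.6 to 3.72 for Gls2 and from -3.23 to -1.93 for Btg2. With the run term neither was called, at 2.11 (adjusted p = 0.11) and -1.68 (adjusted p = 0.305).

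**Figure D4:**
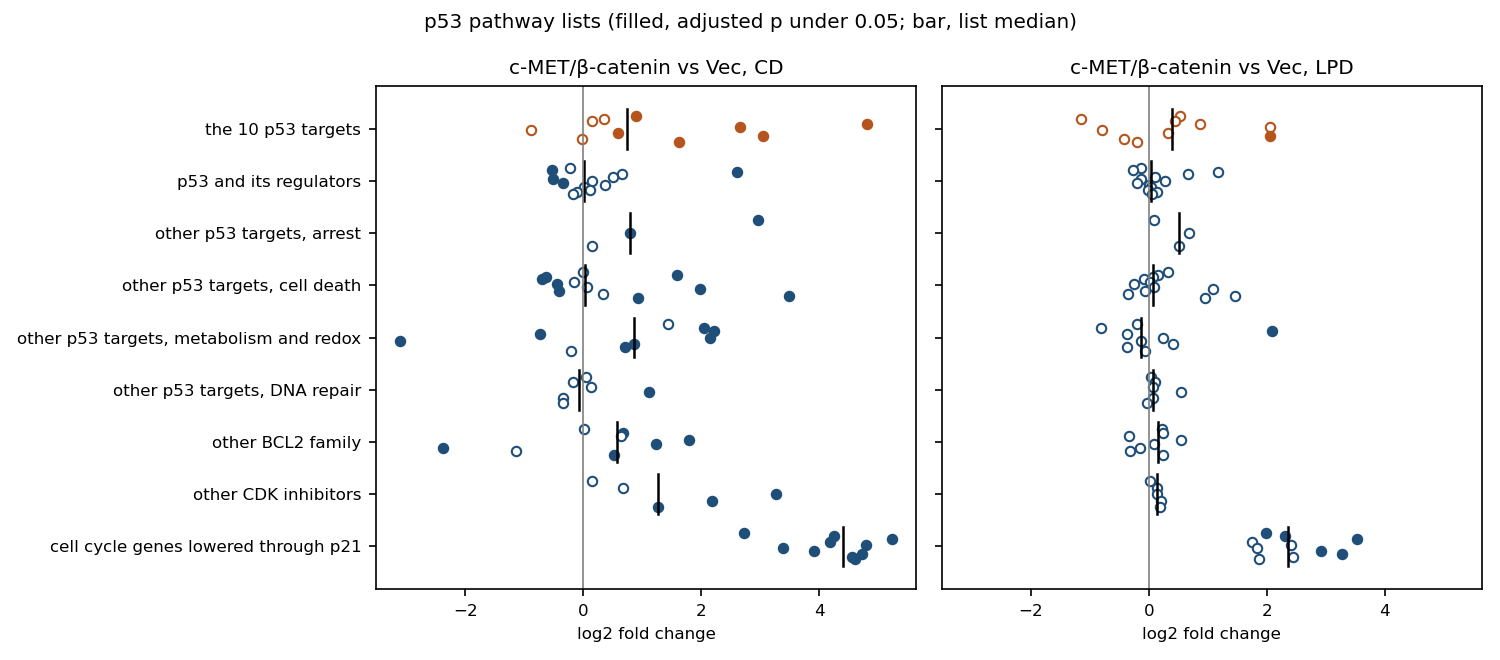
Log2 fold change of oncogene against Vec livers on CD and on LPD for the 10 p53 target genes and for 8 lists of related genes (points; filled, adjusted p under 0.05; bar, median of the list). On CD the list medians run from -0.07 for DNA repair to 4.4 for cell cycle genes, with the 10 targets at 0.74.

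Genes of the cell cycle that p21 is known to hold down, through the DREAM repressor complex, were looked at beside Cdkn1a. All 10 rose on CD, beside 18.7% of all genes, with a median log2 fold change of 4.4, in the same livers in which Cdkn1a rose. They were called in each alternative run, the run term included. Cyclin A2 (Ccna2) rose by 4.25 ± 0.40 (adjusted p = 3.32e-05) from a mean of 0.878 ± 0.593 to 16.8 ± 3.51 CPM (SD, n = 3), and topoisomerase IIα (Top2a) by 4.60 ± 0.46 (adjusted p = 4e-05). Cyclin B1 (Ccnb1) and the mitotic activator Cdc20 rose by 5.23 ± 0.57 (adjusted p = 6.83e-05) and 4.19 ± 0.46 (adjusted p = 7.18e-05). On LPD 5 of the 10 rose by edgeR, which called 1.15% of all genes higher, and 9 by DESeq2. All 10 had an unadjusted p under 0.05 in edgeR, as did 1545 of the 13947 genes tested. The count was 1 with the run term and between 0 and 7 when a single library was left out, with 0 without LPD Vec replicate 1, 2 or 3 and 1 without LPD oncogene replicate 2. All 10 values were positive with the run term, from 1.48 for Cdk1 to 3.15 for Ccnb1, the one still called (adjusted p = 0.0469). Over all libraries Mki67, the proliferation antigen, rose on LPD by 3.27 ± 0.52 (adjusted p = 0.0105; 2.99 and 0.0569 with the run term), whereas Cdkn1a had 0.86. In oncogene livers all 10 were called lower on LPD than on CD, with a median of -2.18, where 1576 of the 13947 genes tested were called lower. The run term left 6 of these calls, and all 10 values were still negative, from -2.02 for Mki67 (adjusted p = 0.0747) to -2.78 for Top2a (adjusted p = 0.0121).

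Of 5 other inhibitors of cyclin-dependent kinases 3 rose on CD, where 18.7% of all genes were called higher, against 5 with total counts alone and 1, Cdkn2c, with the run term, where Cdkn2b had 3.06 (adjusted p = 0.0829) and Cdkn2d 1.48 (adjusted p = 0.0877). Cdkn2c (p18) rose by 2.18 ± 0.27 (adjusted p = 0.000127), Cdkn2b (p15) by 3.26 ± 0.58 (adjusted p = 0.0012) and Cdkn2d (p19INK4d) by 1.26 ± 0.32 (adjusted p = 0.0089). Cdkn1b (p27), the relative of p21, had 0.14 ± 0.13 (adjusted p = 0.418) and Cdkn1c (p57) 0.68 ± 0.36 (adjusted p = 0.161). For Cdkn2c the oncogene effect differed between the diets, with an interaction of -1.98 ± 0.37 (adjusted p = 0.0107), though not with the run term (-2.02, adjusted p = 0.0851), in the direction in which Cdkn1a had its uncalled -3.95.

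The labels name the cells as hepatocytes, and the summed hepatocyte markers stood at 56540 to 105900 CPM in every library, but markers of other liver cells were present and some moved with the oncogenes on CD, where 35.4% of all genes were called. In bulk RNA, fewer cells of a type and less RNA per cell cannot be told apart. Of 5 stellate cell markers 3 rose and 1 fell, with a sum of 59.0 to 112.8 CPM in CD Vec and 156.6 to 398 CPM in CD oncogene livers, against 77.2 to 98.3 and 99.6 to 126.3 CPM on LPD. Of 4 neutrophil markers the 2 that were tested rose, with a sum of 1.37 to 2.5 and 4.90 to 15 CPM on CD and 1.54 to 3.54 and 1.40 to 2.27 CPM on LPD, and Ly6g was at 0 in 11 of the 12 libraries. Of 5 macrophage markers 1 rose, with sums of 73.5 to 159.4 and 120.3 to 185 CPM on CD and 112.8 to 138.8 and 136.5 to 247.8 CPM on LPD. Of 4 T and NK cell markers 1 rose, where the sums were 0.968 to 1.77 and 2.40 to 4.08 CPM on CD and 0.768 to 1.69 and 2.35 to 3.89 CPM on LPD. The cholangiocyte list had 1 of 4 called higher, at 7.71 to 8.53 and 10.1 to 13.3 CPM on CD and 8.05 to 10.5 and 5.68 to 6.25 CPM on LPD. The endothelial list had 1 of 4 called lower, at 85.4 to 173 and 86.5 to 120.4 CPM on CD and 111.7 to 191.5 and 133.4 to 170.5 CPM on LPD, and the hepatocyte list 1 of 4 lower. Of 3 B cell markers 0 were called by edgeR or by DESeq2, and 0 had an unadjusted p under 0.05, with sums of at most 2.70 CPM in any library. On LPD 0 of the 31 tested markers were called by edgeR and 2 by DESeq2. In edgeR 10 of the 31 had an unadjusted p under 0.05, as did 1545 of the 13947 genes tested. With the run term the CD calls of the stellate, neutrophil, T and NK, endothelial and hepatocyte lists were lost, and 1 each was left in the macrophage and cholangiocyte lists. Among the lost calls the T cell gene Cd8a had 3.2 (3.72 without the term) and the endothelial Clec4g -0.92 (-1.09), whereas the stellate Acta2 had 0.77 (2.91) and Col1a1 1.73 (3.92). Without CD Vec replicate 3 the macrophage list had 3 called. The part of these cells in the levels of the p53 targets was not tested.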

How the data were processed

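RNA-seq was made from snap-frozen livers of 12 mice, and libraries were grouped by the titles in the labels. The labels describe depletion of ribosomal RNA, the methods of the study selection of mRNA. The deposited values are integer read counts per gene, which the authors made with HISAT2 on mm10 and featureCounts. Versions, strand setting and multimapping are not given in the sources used here. All 12 columns were mapped, and 93.1% of identifiers had a symbol. Counts were tested in R 4.3.3 with edgeR 4.0.16 (TMM, filterByExpr, robust quasi-likelihood), with all 4 groups in 1 fit and p-values adjusted by Benjamini-Hochberg over 13947 genes. The SE is the size of the log2 fold change divided by the root of the F statistic. DESeq2 1.42.0, other scalings, no filter, fewer groups, a run term, a replicate block and leaving out libraries were alternatives, and a fit within 1 run was added after seeing the data. Replicates are separate mice. Replicate libraries differed by more than counting noise.

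The 10 genes and the lists were chosen with earlier results of these data known. Named were the 10 genes, Trp53, Mdm4, from each list up to 4 called genes by smallest p and up to 2 uncalled by highest level, and the 5 genes whose pattern was most like that of the 10. Libraries held 19476209 counts or more.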

Additional observations from a re-analysis of the deposited data

How the results depend on the processing

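On CD the count of 6 called p53 targets was 5 to 7 under every alternative except the run term, which left 1, and the 7 libraries of the shared run, which left 3, and it was 6 to 6 when single libraries were left out. On LPD the count of 1 became 4 with only the compared groups in the fit (Phlda3, Ccng1, Bbc3 and Eda2r). It was 4 with DESeq2 (Phlda3, Bax, Bbc3 and Eda2r) and ranged from 0 to 3 without single libraries. It was 0 without LPD Vec replicate 1, 2 or 3 or LPD c-MET/β-catenin replicate 2, and 3 without CD Vec replicate 2. In c-MET/β-catenin livers the diet count of 0 became 1 with DESeq2 (Cdkn1a, -2.25, adjusted p = 0.0417) and ranged from 0 to 3 without single libraries. It was 3 without CD c-MET/β-catenin replicate 3. The interaction count of 0 became 1 with total counts only (Trp53inp1, -1.98, adjusted p = 0.0427) and 3 with DESeq2, and ranged from 0 to 2. In Vec livers it was 0 throughout. The causes of these changes were not tested. Total counts alone brought the median of all genes to 0.278 on CD, 0.121 on LPD and -0.156 in the interaction, from -0.01, 0.01 and 0.02.

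With a replicate block the counts were 6, 1, 0, 0 and 0, as without it. The replicate numbers do not pair the mice: 18 pairs of libraries with the same number correlated from -0.183 to 0.167, 2 of them above 0.1, and 3 of 12 libraries correlated best with their own number. No called value changed direction under an alternative. Of the values of the 10 genes under alternatives, 13 lost a call and 31 gained one, while 127 called and 819 uncalled ones stayed on their side of the threshold. With groups of 3 and a common dispersion of 0.0537, Cdkn1a and Eda2r had the largest SEs of the 10 on CD, 0.91 and 0.52.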

Other observations

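Of 8 relatives of Bax and Bbc3 in the BCL2 family 4 rose and 1 fell on CD, where 18.7% of all genes were called higher and 35.4% in either direction. With the run term Bik alone was called on CD, and Bcl2l1 had 1.2 (adjusted p = 0.0765), Bak1 0.71 (adjusted p = 0.0707) and Mcl1 0.35 (adjusted p = 0.338). Bcl2l1, which encodes the survival protein BCL-XL, was at 37.8, 31.3 and 46.6 CPM in CD Vec livers and 191, 120 and 87.8 CPM in CD c-MET/β-catenin livers, and rose by a log2 fold change of 1.79 ± 0.28 (adjusted p = 0.000583). Mcl1, another survival protein, rose by 0.52 ± 0.12 (adjusted p = 0.00637) and the effector Bak1 by 0.68 ± 0.12 (adjusted p = 0.00135). Bik, a BH3-only killer, went the other way. It was at 6.06, 5.34 and 3.59 CPM in CD Vec and 0.982, 1.10 and 0.786 CPM in CD c-MET/β-catenin livers, a log2 fold change of -2.38 ± 0.28 (adjusted p = 9.85e-05), and at 5.57, 5.23 and 5.25 CPM in LPD c-MET/β-catenin livers. Its oncogene effect differed between the diets (interaction 2.24 ± 0.38, adjusted p = 0.00696). The run term gave 2.46, which missed the threshold (adjusted p = 0.0789). On LPD 0 of the 8 were called by edgeR and 0 by DESeq2, and 0 had an unadjusted p under 0.05.

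Over the 12 libraries the 5 genes outside the 10 whose log2 CPM followed the mean standardized level of the 10 most closely, among 9614 genes, were Cdc42se2 (r = 0.96), Pik3ap1 (0.96), Prkcd (0.96), Il22ra1 (0.95) and Ccdc6 (0.95). The 12 points share groups and scaling, so this is a description. Il22ra1, a receptor chain for interleukin 22, had group means of 5.10 CPM in CD Vec, 25.4 in CD c-MET/β-catenin, 15.7 in LPD Vec and 18.8 CPM in LPD c-MET/β-catenin livers.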
